A study of Mus musculus with 126 samples.

Results

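Colon RNA was compared between mice that ate a high-salt diet by day only and mice that ate it by night only. The comparison used every library of these groups, 36 of the 126 in the series, with 18 in high salt day fed and 18 in high salt night fed. All were 8-week-old male C57BL/6 mice on time-restricted feeding, housed under 12 h of light and 12 h of dark. Colons were harvested every 4 h, at zeitgeber time (ZT, hours after lights on) 0, 4, 8, 12, 16 and 20, with 3 libraries per group and time. Both groups ate the same high-salt diet and carried no transgene or mutation per the labels. The labels used here give neither the hours of access nor the salt content, so feeding by day is known only by its name. Where a salt difference is given, 18 low salt day fed and 18 low salt night fed libraries, from mice of the same age, sex and strain, were set beside them.

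The circadian clock is a loop in which BMAL1 (gene Arntl) with CLOCK or NPAS2 switches on the Per and Cry repressors, while the REV-ERBs (Nr1d1 and Nr1d2) switch off Arntl. In nocturnal mice a meal confined to the light phase can move the clocks of gut and liver away from the clock of the brain. The colon also renews its lining daily, absorbs sodium under the control of aldosterone, and keeps a standing antimicrobial and interferon-dependent defence against its microbes. Promoters of interferon-induced genes often hold the interferon-stimulated response element, those of clock-controlled genes the E-box bound by BMAL1 or the D-box bound by DBP and TEF, and those of chaperone genes the heat shock element bound by HSF1.

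The values are FPKM (mapped fragments scaled by transcript length and library total), divided by a scale factor per library and called rescaled FPKM. A level difference is the mean over 6 times of the day fed minus night fed log2(rescaled FPKM + 0.5), given with its standard error. A rhythm difference is the size, on the same log2 scale, of the difference between the 24 h cosine and sine waves of both groups. Adjusted p-values are from limma with Benjamini-Hochberg adjustment over 10856 tested genes, with 0.05 as the threshold. The pseudocount of 0.5 makes the fold of low genes smaller than it is on the FPKM scale.

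Some libraries stood apart. The scale factor lay between 0.712 and 1.51 in day fed and between 0.382 and 1.42 in night fed, and the 5 libraries under 0.6 were all night fed, 3 labelled ZT8 and 2 labelled ZT12. Results given without these 5 also rest on another model. It fitted a 24 h cosine and sine wave per group instead of 1 mean per time. In those 5, ribosomal RNA rows took 0.349 to 15.7% of the summed FPKM, against 0.0704 to 5.45% in the other 31. A length score, which is high where long transcripts are relatively more abundant, ran from -0.47 to 0.78 in day fed and from -0.39 to 0.33 in night fed, and 4 day fed libraries had more than 0.35. Replicates differed by a median absolute log2 of 0.122 to 0.44. Epithelial markers summed to a median of 6750 rescaled FPKM in day fed and 7050 in night fed, while none of the fibroblast, endothelial or neuronal markers passed the filter on low values. Of 9 smooth muscle markers 2 passed it.

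The day fed libraries labelled ZT0 and ZT12 stood apart in another way, which touches every rhythm below. Over 18 clock genes, the profile of the libraries labelled high salt day fed ZT0 correlated with that of night fed ZT0 at r = 0.98, and the same value of 0.98 was found at ZT12. At ZT4, ZT8, ZT16 and ZT20 the corresponding correlation lay between -0.94 and -0.84. Against low salt day fed at the same ZT, the high salt day fed libraries correlated at -0.84 at ZT0 and at -0.84 at ZT12, but at 0.49 to 0.81 at the other 4 times. In low salt the day fed and night fed profiles were opposed at all 6 times (-0.79 to -0.33). These correlations are across genes that are not independent, and are descriptions. In the same libraries other genes kept the day fed level: the interferon gene Isg15 had 68.7 to 88.8 rescaled FPKM in the 3 day fed libraries labelled ZT0 and 6.06 to 10.5 in the night fed ones. Whether the time labels of these 6 libraries are right was not tested. The mean level over 6 times does not depend on which of these times a day fed library carries, and the repeat at ZT4, ZT16 and ZT20 holds neither time. Rhythm results are given with these libraries, at ZT4, ZT16 and ZT20 alone, and at ZT4, ZT8, ZT16 and ZT20 alone, a setting added after the data were seen.

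Interferon-induced genes were the clearest difference of level. Day fed colons had more RNA of all 21 genes of the interferon list than night fed colons, with a median log2 difference of 1.73, against -0.01 over all tested genes. Of all tested genes, 10.4% were higher and 11.8% lower in day fed over 6 times. At ZT4, ZT16 and ZT20 alone, 20 of the 21 were higher, where 1.78% of all genes passed (1.42% higher and 0.359% lower). All 21 passed the filter on low values, and all 21 stayed higher when the 5 night fed libraries of low scale factor, or the 4 day fed libraries of high length score, were left out. Over ZT4, ZT8, ZT16 and ZT20, 20 of 21 passed.

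The promoters of Isg15 and Ifit1, of this list, and of Oas3, an interferon-induced gene outside it, are shown because they hold the response element and their levels are described next. Each window runs from 250 bases before to 50 bases after the start of the gene, from RefSeq on GRCm38.p6, 5′ to 3′ on the gene's strand, with capitals marking the element, GAAA and GAAA separated by 2 bases of any kind, on either strand.
Isg15: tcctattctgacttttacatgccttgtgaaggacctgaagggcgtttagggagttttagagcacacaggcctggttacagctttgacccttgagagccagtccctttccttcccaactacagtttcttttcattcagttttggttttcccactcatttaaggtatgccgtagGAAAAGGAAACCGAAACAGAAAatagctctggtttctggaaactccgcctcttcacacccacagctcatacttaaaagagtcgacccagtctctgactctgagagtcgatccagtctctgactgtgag
Ifit1: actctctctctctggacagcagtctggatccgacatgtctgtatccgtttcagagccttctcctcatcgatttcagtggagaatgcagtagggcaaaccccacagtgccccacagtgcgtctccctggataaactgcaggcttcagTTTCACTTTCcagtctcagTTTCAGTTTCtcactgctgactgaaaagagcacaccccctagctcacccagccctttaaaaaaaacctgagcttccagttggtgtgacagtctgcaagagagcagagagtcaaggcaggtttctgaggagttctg
Oas3: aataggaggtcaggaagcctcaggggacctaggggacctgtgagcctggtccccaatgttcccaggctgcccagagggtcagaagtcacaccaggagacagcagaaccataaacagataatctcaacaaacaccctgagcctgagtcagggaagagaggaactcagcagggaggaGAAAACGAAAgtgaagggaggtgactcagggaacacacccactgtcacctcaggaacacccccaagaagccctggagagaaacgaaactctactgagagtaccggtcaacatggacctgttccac
Isg15 is at chr4:156200769-156201068 on the minus strand, Ifit1 at chr19:34640639-34640938 on the plus strand and Oas3 at chr5:120777610-120777909 on the minus strand. Isg15 held 3 overlapping matches, Ifit1 held 2, and Oas3 held 1. On both strands together, 3.44% of 32851 promoter windows held a match. Among the 21 interferon genes, 12 had a window, and 7 of their 14 windows held a match (7 genes). A match is a description of these letters, not evidence of binding.

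Isg15, which encodes a ubiquitin-like protein attached to other proteins during antiviral responses (chromosome 4, 156199424 to 156200818, mm10), had a lowest value of 52.6, a median of 85.2 and a highest of 140 rescaled FPKM in day fed, against 6.06, 9.37 and 30.1 in night fed. Every day fed library lay above every night fed library. The log2 difference was 3.09 ± 0.14 (SE; limma adjusted p = 2.78e-16, 18 libraries per group), with that sign at 6 of 6 times. Ifit1, which encodes a protein that binds viral RNA lacking host cap methylation, had 9.95, 15.2 and 27.6 in day fed and 1.04, 2.27 and 4.21 in night fed, also without overlap. Its difference was 2.54 ± 0.11 (adjusted p = 1.37e-16). The plots of Isg15 and Oasl2 by library show the gap at each time.

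**Figure D1:**
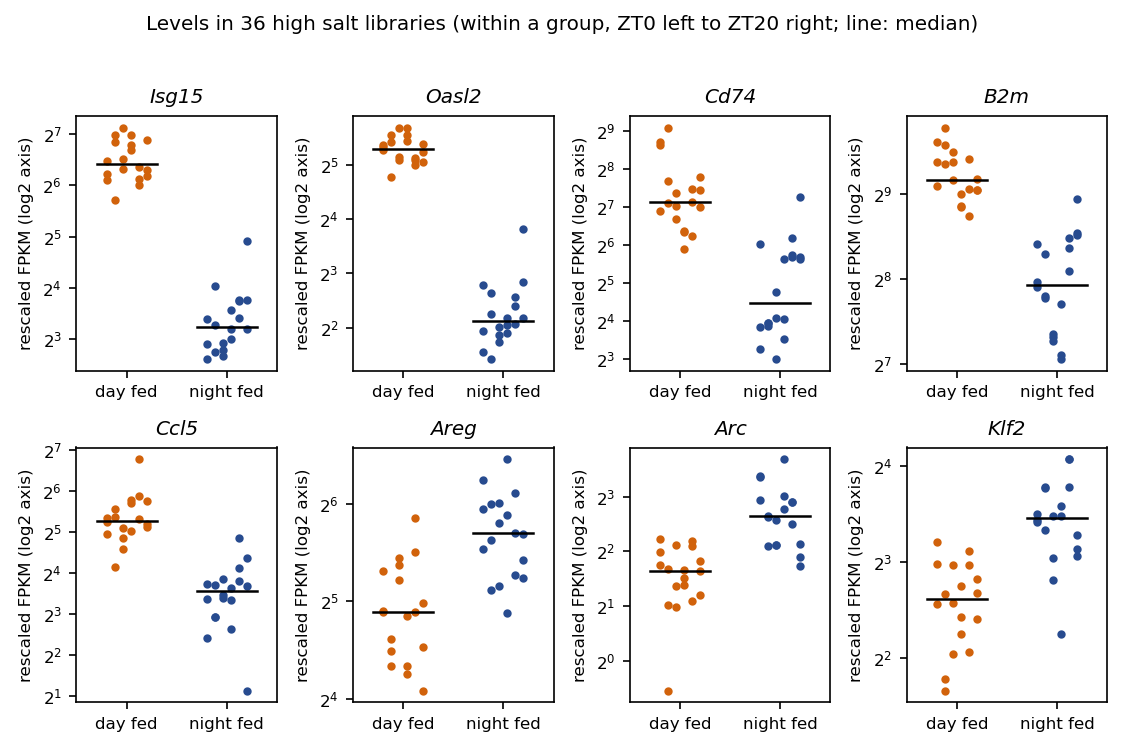
Rescaled FPKM (log2 axis) of 8 genes in each of the 18 high salt day fed libraries (left, orange) and 18 high salt night fed libraries (right, blue), with the median as a line and times running from ZT0 to ZT20 within a group. The groups do not overlap for Isg15 and Oasl2, overlap in part for Cd74, B2m and Ccl5, and lie the other way round for Areg, Arc and Klf2.

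The 10 largest rises that held over 6 times and over ZT4, ZT16 and ZT20 were genes known to be induced by interferon. The oligoadenylate synthetase family, which senses double-stranded RNA, gave 3 of them. Oasl2 had 27.3, 39 and 51.2 in day fed and 2.68, 4.37 and 14.1 in night fed (log2 difference 2.91 ± 0.12). Oas3 had 4.83, 7.87 and 11.6 against 0.182, 0.607 and 2.53 in night fed, a difference of 2.89 ± 0.11, and Oas2 differed by 2.83 ± 0.1. None of the 3 overlapped between the groups. Ifi27l2a, an interferon alpha-inducible gene, differed by 3.47 ± 0.22 but overlapped, with a day fed minimum of 2.45 below the night fed maximum of 4.92. Apol9b and Apol9a, which are apolipoprotein L family genes, differed by 3.04 ± 0.14 and 2.98 ± 0.14. Ifi44 differed by 2.99 ± 0.11, Usp18, the protease that removes ISG15, by 2.8 ± 0.12, and Ifit2 by 2.7 ± 0.15. Apart from Ifi27l2a, each of these 10 genes was higher in every day fed library than in any night fed one. The 10 were picked as the largest rises in these same libraries, and the share of all genes without overlap was not counted. The lack of overlap is therefore a description. Apol9a and Apol9b are close paralogs whose reads the counting could have divided, so their separate values are uncertain.

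Not all genes of the list differed as much as these 10. Rsad2, which encodes the antiviral enzyme viperin, had 1.4, 2.55 and 4.84 against 0.0912, 0.651 and 0.987 in night fed, without overlap (1.49 ± 0.09).

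The low salt groups place these levels. On one scale over 72 libraries, the high salt medians of Isg15 were 93.8 rescaled FPKM in day fed and 10.3 in night fed, and its low salt medians were 54.4 in day fed and 84.4 in night fed. Its median was lowest with high salt by night, where the highest Isg15 value of 33.3 overlapped only the bottom of the low salt ranges (lowest 22.1 in day fed and 22.3 in night fed). Oasl2 had high salt medians of 43.2 in day fed and 4.82 in night fed, and low salt medians of 29.1 in day fed and 40.4 in night fed. None of its high salt night fed values (highest 15.6) reached the lowest of the other groups (17.6). In low salt, 10 of the 21 interferon genes were lower in day fed and none was higher, with a median of -0.36, where 2.41% of all genes were lower and 1.13% higher. The difference between the diets in the day fed minus night fed contrast passed for 20 of the 21, all positive, where 9.54% of all genes passed that way and 10.3% the other. For Isg15 that difference was 3.5 ± 0.22 (adjusted p = 3.31e-18). These comparisons cross separately deposited tables, of which it is not known whether they were normalized together.

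Antigen presentation genes were higher with day feeding too. All 6 tested genes of the MHC class II list were higher in day fed (median 1.84), and all 7 were when no filter was applied. Of all tested genes 10.4% were higher over 6 times. Cd74, the invariant chain that escorts class II molecules, had 59.1, 138 and 542 in day fed and 7.88, 21.8 and 152 in night fed. The groups overlapped, with the lowest day fed libraries at ZT12 and the highest night fed libraries at ZT20. The log2 difference was 2.46 ± 0.25 (limma adjusted p = 2.34e-08) and had that sign at 6 of 6 times. H2-Ab1, a chain of the class II molecule itself, had 20.3, 50.8 and 126 against 4.26, 10.4 and 47.8 in night fed (1.92 ± 0.2). H2-Eb1 differed by 1.77 ± 0.19 and H2-DMa, which helps load peptide, by 1.12 ± 0.14, though H2-DMa missed the threshold at ZT4, ZT16 and ZT20 (0.85 ± 0.21, adjusted p = 0.0551).

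MHC class I, which shows cytosolic peptides on nearly all cells, also differed. Of its 11 genes 10 were higher in day fed (median 0.69) and 7 were at ZT4, ZT16 and ZT20. Among all genes these shares were 10.4% and 1.42%. B2m, the shared light chain, had 426, 575 and 878 in day fed and 133, 244 and 489 in night fed (1.28 ± 0.08, adjusted p = 3.17e-13). H2-D1, a heavy chain, had 298, 390 and 464 against 152, 238 and 377 in night fed (0.69 ± 0.06). Both pairs of ranges overlapped, at the top of night fed and the bottom of day fed. The peptide transporter gene Tap1 differed by 1.38 ± 0.14, the immunoproteasome subunit gene Psmb8 by 1.09 ± 0.13 and Nlrc5, the class I transactivator, by 1.24 ± 0.12. In the diet comparison, the day fed minus night fed difference was larger in high salt for 10 of 11 class I genes. It was so for 6 of 6 class II genes, where 9.54% of all genes passed that way.

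Transcripts of cytotoxic T cells moved with these groups. Of 10 T cell markers 8 passed the filter and all 8 were higher in day fed, with a median of 1.17. All 10 were when no filter was applied. Of all tested genes 10.4% were higher over 6 times. Their summed level was 29.4 at the lowest, 67.3 at the median and 155 at the highest in day fed, against 5.59, 19.8 and 56.3 in night fed. Day fed means were highest for Ccl5 (42.8) and Gzma (13.1), against 1.83 for Cd3d, 1.51 for Cd3e and 1.43 for Cd8a. Ccl5, a chemokine made by memory T cells, had 17.7, 38.5 and 109 in day fed and 2.17, 11.7 and 28.9 in night fed (1.84 ± 0.2). Gzma, a granule protease, differed by 1.97 ± 0.24, Nkg7, a granule membrane protein, by 1.39 ± 0.17, and the coreceptor gene Cd8a by 0.94 ± 0.11. All 4 genes also passed at ZT4, ZT16 and ZT20, where 1.42% of all genes were higher. In bulk colon, more cells of a type and more RNA per cell cannot be told apart. B and plasma cell markers were low in both groups (summed 1.06 to 5.83 in day fed and 0.525 to 4.87 in night fed, medians 2.31 and 1.41). Of 8 such markers only Jchain was tested, and it passed the filter only through its day fed mean (1.29, against 0.606 in night fed). Jchain was higher in day fed over 6 times (log2 difference 0.63), but did not pass at ZT4, ZT16 and ZT20. The filter favoured a gene high in day fed, so this call is a description. Macrophage markers summed to 18.9 to 41.9 in day fed and 14.1 to 34.5 in night fed, with 1 of 4 tested higher in day fed. What part T cell RNA has in the interferon and MHC differences was not tested. In low salt 6 of the 8 markers were lower in day fed, where 2.41% of all genes were. The contrast differed between the diets for all 8, all positive, where 9.54% of all genes passed that way.

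Epithelial defence genes were mixed: 6 of 17 tested were higher in day fed and 1 was lower, and none passed at ZT4, ZT16 and ZT20. Among all genes 10.4% were higher and 11.8% lower over 6 times. Duox2, an epithelial oxidase that makes hydrogen peroxide, had 7.07, 13 and 96.2 in day fed and 2.2, 5.85 and 17.2 in night fed (1.42 ± 0.26, adjusted p = 0.000388). Its maturation factor Duoxa2 differed by 1.11 ± 0.19. Nos2, the inducible nitric oxide synthase, had 0.686, 1.53 and 46.6 against 0.188, 0.427 and 1.7 in night fed (1.69 ± 0.33). The high day fed values of Nos2 came from few libraries, with 7.05 to 27.5 at ZT0 and 0.909 to 46.6 at ZT4. Of the 17, Nos2 (means 7 in day fed and 0.648 in night fed) and S100a8 (1.05 and 0.144) passed the filter only through day fed. Lyz1 (0.765 in day fed and 1.63 in night fed) passed it only through night fed. Lypd8, a secreted protein that keeps flagellated bacteria off the surface, was abundant in both groups, with 4200, 6800 and 8390 in day fed and 2810, 4780 and 6980 in night fed (0.5 ± 0.11).

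Several early response and growth factor genes were lower with day feeding. Of 15 tested immediate early genes none was higher and 7 were lower in day fed (median -0.30). Of these, 2 passed at ZT4, ZT16 and ZT20, 5 without the 5 low-scale night fed libraries and 3 without replicate 3. Of all genes 11.8% were lower over 6 times and 0.359% at ZT4, ZT16 and ZT20. On FPKM as deposited, without rescaling, the median of this list turned to 0.16, while that of all genes moved to 0.42, so relative to all genes it stayed lower. Arc, an activity-induced gene, had 0.682, 3.14 and 4.69 in day fed and 3.34, 6.23 and 12.9 in night fed, with overlap (-0.99 ± 0.12, adjusted p = 1.02e-06). Cyr61, a matricellular gene induced by YAP, had 3.62, 12.3 and 28 against 10.7, 25.8 and 43.6 in night fed (-1 ± 0.16). The nuclear receptor gene Nr4a1 differed by -1.11 ± 0.21 and the stress factor gene Atf3 by -0.75 ± 0.14, though neither passed at ZT4, ZT16 and ZT20 (adjusted p = 0.132 for Nr4a1 and 0.0675 for Atf3).

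The EGF receptor list had 2 genes higher and 3 lower among 5 tested, with 3 further members under the filter. Over 6 times 10.4% of all genes were higher and 11.8% lower. Areg, which encodes amphiregulin, a growth factor for epithelium, had 16.9, 29.6 and 57.7 in day fed and 29.5, 51.8 and 87.9 in night fed (-0.78 ± 0.13, adjusted p = 7.79e-05). Hbegf, another ligand, had 21.3, 38.3 and 60.3 against 29.1, 55.7 and 79.4 in night fed (-0.51 ± 0.11). Errfi1, a feedback inhibitor of the receptor, differed by -0.37 ± 0.07, which became 0.1 on FPKM as deposited. On the scale of 72 libraries the high salt medians of Areg were 32.8 in day fed and 57.2 in night fed, and the low salt medians 38.8 in day fed and 37 in night fed, so high salt by night had the highest median. For Arc the high salt medians were 3.45 in day fed and 6.86 in night fed, and the low salt medians 6.33 in day fed and 6.27 in night fed, so high salt by day had the lowest.

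Of the other large falls that held in the repeat, Klf2, a transcription factor of quiescence and shear response, had 3.15, 6.13 and 9.2 in day fed and 4.74, 10.9 and 16.8 in night fed (-0.8 ± 0.11). Edn1, which encodes the peptide endothelin-1, differed by -0.77 ± 0.12. Mptx2, a mucosal pentraxin, differed by -0.65 ± 0.14, and Akr1c18, which inactivates progesterone, by -0.56 ± 0.11. Plk2, a stress-responsive kinase, differed by -0.61 ± 0.08, Ifrd1 by -0.56 ± 0.1 and Cdk8, a kinase of the Mediator complex, by -0.17 ± 0.04. Cdk8 turned to 0.29 on FPKM as deposited, and Mptx2 and Cdk8 missed the threshold without the 5 low-scale libraries. The ranges of all of these overlapped between the groups.

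Ribosomal protein genes were lower in day fed for 12 of 15 over 6 times (median -0.30), and for none at ZT4, ZT16 and ZT20, without the low-scale libraries, without the day fed libraries of high length score, or without replicate 1 or replicate 3. Rps6 had 326, 595 and 858 in day fed and 483, 666 and 976 in night fed (-0.3 ± 0.09, adjusted p = 0.0222), and Rpl8 differed by -0.43 ± 0.12. Both changed sign on FPKM as deposited (0.18 for Rps6 and 0.05 for Rpl8). These transcripts are short, and the length score moves with the groups; its part was not tested beyond the settings named. Goblet cell markers gave 3 of 9 lower in day fed and none higher (median -0.27, 0.21 on FPKM as deposited), with none at ZT4, ZT16 and ZT20. Among all genes 11.8% were lower over 6 times. Clca1, a goblet cell metalloprotease that loosens mucus, had 132, 245 and 374 against 195, 353 and 795 in night fed (-0.55 ± 0.15) and lost its call in several settings, among them the one without low-scale libraries (-0.24, adjusted p = 0.425).

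**Figure D2:**
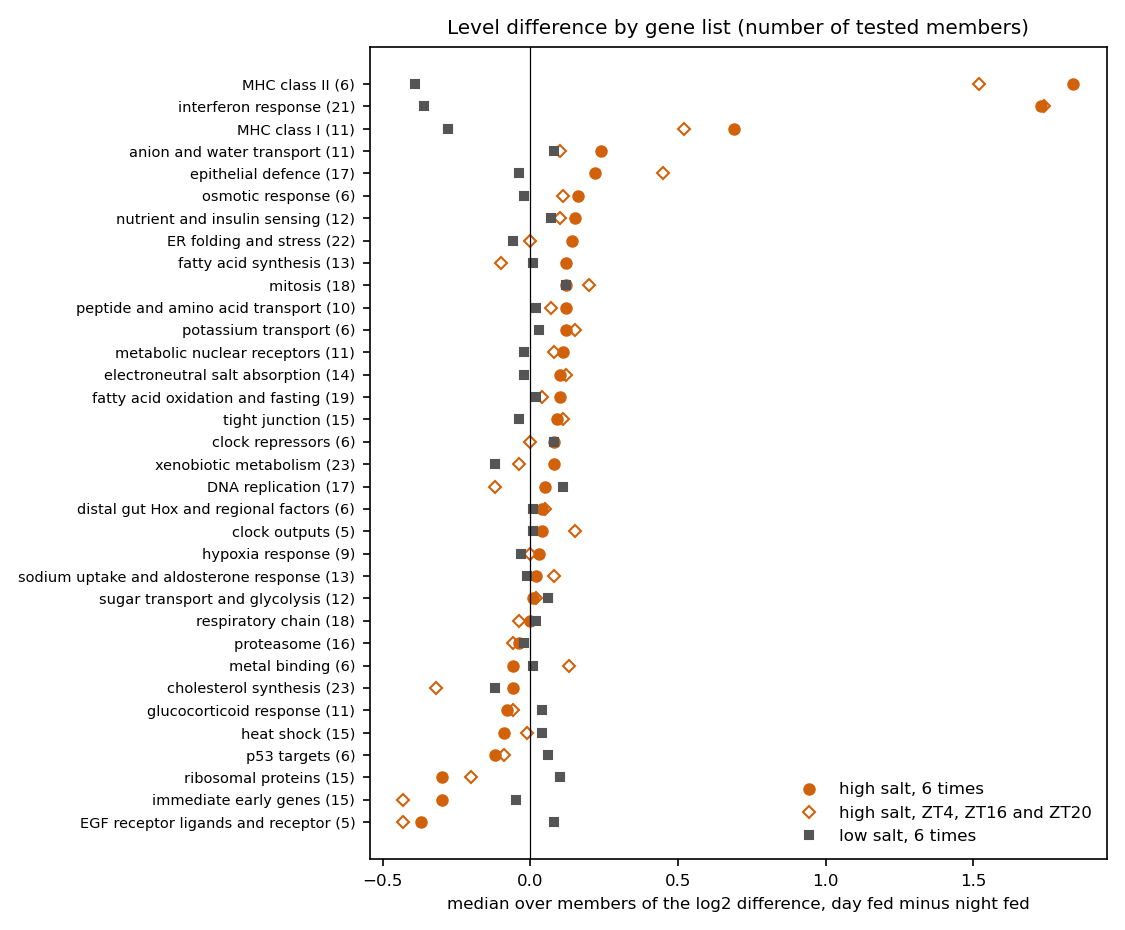
Median over the tested members of each gene list of the log2 level difference, day fed minus night fed, in high salt over 6 times (filled circles), in high salt at ZT4, ZT16 and ZT20 (open diamonds) and in low salt over 6 times (squares). MHC class II, interferon response and MHC class I lie at 1.84, 1.73 and 0.69 in high salt and below 0 in low salt; most lists lie near 0.

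Genes of salt transport showed few differences of level that held. Aldosterone acts through the mineralocorticoid receptor to raise the epithelial sodium channel ENaC, and a high-salt diet lowers aldosterone. Of 13 tested genes of this list 4 were higher and 2 lower in day fed, and none passed at ZT4, ZT16 and ZT20. Among all genes 10.4% were higher and 11.8% lower over 6 times. Scnn1a, the ENaC alpha subunit, had 10.5, 18.5 and 27.7 in day fed and 12.8, 15.5 and 34.4 in night fed, a difference of 0 ± 0.08 (adjusted p = 0.991). Scnn1b, the beta subunit, had 0.544, 1.06 and 1.62 against 0.5, 1.43 and 2.36 in night fed. Its difference of -0.26 ± 0.09 (adjusted p = 0.0334) missed the threshold when any of 11 of the 36 libraries was left out. The gamma subunit gene Scnn1g was under the filter, with a mean of 0.0803 in day fed and 0.123 in night fed. Sgk1, the aldosterone-induced kinase (0.17 ± 0.21, adjusted p = 0.567), and Nr3c2, the mineralocorticoid receptor (0.22 ± 0.14, adjusted p = 0.236), were not past the threshold. Fxyd4, a sodium pump regulator induced by corticosteroids, had 1.9, 13.5 and 48.1 in day fed and 5.44, 24.5 and 73.8 in night fed (-1.17 ± 0.26, adjusted p = 0.00268, and 0.0564 at ZT4, ZT16 and ZT20). On the scale of 72 libraries its high salt medians were 14.9 in day fed and 27.1 in night fed, below its low salt medians of 141 in day fed and 123 in night fed.

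Electroneutral sodium absorption gave 5 higher and none lower of 14, and at ZT4, ZT16 and ZT20 none higher and 1 lower. The share of all genes higher over 6 times was 10.4%. Slc9a3, the apical exchanger NHE3, had 4.91, 13.3 and 31.1 in day fed and 1.4, 4.88 and 28.9 in night fed (1.3 ± 0.25, adjusted p = 0.000593). Slc9a2, the exchanger NHE2, had 22.1, 37 and 48.8 against 14.3, 23.9 and 49.8 in night fed (0.52 ± 0.13). Neither passed at ZT4, ZT16 and ZT20 (adjusted p = 0.057 for Slc9a3 and 0.305 for Slc9a2), or without the 5 low-scale libraries. Markers of surface colonocytes, the cells that carry these exchangers, moved the same way, with 3 of 9 higher and none lower in day fed (median 0.34) and none at ZT4, ZT16 and ZT20 or without the low-scale libraries. Their summed level was 3280 to 6970 in day fed and 2660 to 7320 in night fed. Krt20, a keratin of the surface, had a median of 424 in day fed and 310 in night fed. Car1, Car4 and Slc26a3 are in both lists, and the part of these cells in the transporter differences was not tested.

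Clock genes differed in their daily course. No clock gene of the 18 tested passed for level over 6 times (at ZT4, ZT16 and ZT20, 2 were higher and 3 lower), while 17 of 18 passed for the rhythm difference, where 25.2% of all genes did. The exception was Clock itself (0.05 ± 0.13, adjusted p = 0.956). All 17 also passed in the test at ZT4, ZT16 and ZT20, where 9.14% of all genes passed, and at ZT4, ZT8, ZT16 and ZT20. Without the 5 low-scale libraries 12 of the 17 passed, and Arntl, Nr1d2, Nfil3, Ciart and Dbp did not. The promoters of 3 clock genes are shown for their E-boxes, with capitals marking CACGTG, which reads the same on both strands, and in Per1 also the D-box TTATGNAA.
Ciart: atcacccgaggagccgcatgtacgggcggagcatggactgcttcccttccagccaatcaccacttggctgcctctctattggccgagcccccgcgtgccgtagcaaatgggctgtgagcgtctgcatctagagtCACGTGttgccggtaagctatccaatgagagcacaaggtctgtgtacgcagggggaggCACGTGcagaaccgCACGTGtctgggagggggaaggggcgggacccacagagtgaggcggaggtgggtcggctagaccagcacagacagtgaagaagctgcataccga
Per1: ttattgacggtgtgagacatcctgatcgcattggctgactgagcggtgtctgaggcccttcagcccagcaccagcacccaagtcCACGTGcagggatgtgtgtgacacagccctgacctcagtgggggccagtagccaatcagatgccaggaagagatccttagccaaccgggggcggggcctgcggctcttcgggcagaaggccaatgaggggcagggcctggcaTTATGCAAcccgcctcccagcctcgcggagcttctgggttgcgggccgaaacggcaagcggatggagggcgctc
Cry1: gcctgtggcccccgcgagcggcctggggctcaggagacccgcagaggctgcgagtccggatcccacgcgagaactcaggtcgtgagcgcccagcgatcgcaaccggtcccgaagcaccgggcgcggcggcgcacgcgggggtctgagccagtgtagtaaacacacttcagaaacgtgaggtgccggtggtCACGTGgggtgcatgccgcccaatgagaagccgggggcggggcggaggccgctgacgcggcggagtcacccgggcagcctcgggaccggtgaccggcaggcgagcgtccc
These windows lie at chr3:95882179-95882478 (minus strand), chr11:69098699-69098998 (plus strand) and chr10:85185005-85185304 (minus strand), from RefSeq on GRCm38.p6. Ciart held 3 copies of CACGTG, and Per1 and Cry1 held 1 each. CACGTG was in 7.15% of the 32851 windows and in 6 of the 22 windows of the 17 clock genes that had one (5 genes). TTATGNAA, on both strands, was in 3.38% of all windows and in 2 of these 22 (2 genes).

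Dbp, a transcription factor whose RNA is driven by BMAL1 (chromosome 7, 45705088 to 45710203, mm10), shows the pattern. In day fed its replicates ran from 9.16 to 12.6 at ZT4, 1.95 to 2.71 at ZT8, 0.658 to 0.901 at ZT16 and 3.82 to 13.1 at ZT20. In night fed they ran from 0.338 to 0.488 at ZT4, 3.91 to 19.3 at ZT8, 6.79 to 16.5 at ZT16 and 0.454 to 1.7 at ZT20. At each of these 4 times the groups did not overlap, and day fed was the higher at ZT4 and ZT20 and the lower at ZT8 and ZT16. In the day fed libraries labelled ZT0 Dbp had 0.515 to 0.754, and 0.64 to 0.989 in night fed ZT0. In those labelled ZT12 it had 20.7 to 34.3, and 35.1 to 41.6 in night fed ZT12. The day fed course as labelled therefore rose and fell 3 times in a day, in all 3 replicates.

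Nr1d1, which encodes REV-ERB alpha, the repressor of Arntl, alternated in the same way. Its day fed means from ZT0 to ZT20 were 1.35, 9.27, 1.58, 29.7, 11.3 and 25.2, against 1.47, 12.7, 42.8, 32.7, 7.84 and 1.22 in night fed. Night fed shows 1 broad peak at ZT8 to ZT12, and day fed as labelled had maxima at ZT4, ZT12 and ZT20. Arntl, whose protein BMAL1 drives the loop, had day fed means of 11.7, 2.55, 7.2, 2.22, 7.84 and 4.26, against 11.9, 7.76, 3.39, 1.47, 2.26 and 6.73 in night fed. It was lower than night fed at ZT4 and higher at ZT8 and ZT16. Per2, a repressor gene that also responds to feeding, had 6.78, 10.5, 4.68, 4.84, 1.65 and 1.98 in day fed and 5.79, 0.571, 1.91, 6.01, 9.55 and 6.76 in night fed. Its day fed course had a single peak near ZT4, opposite to the night fed peak near ZT16.

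**Figure D3:**
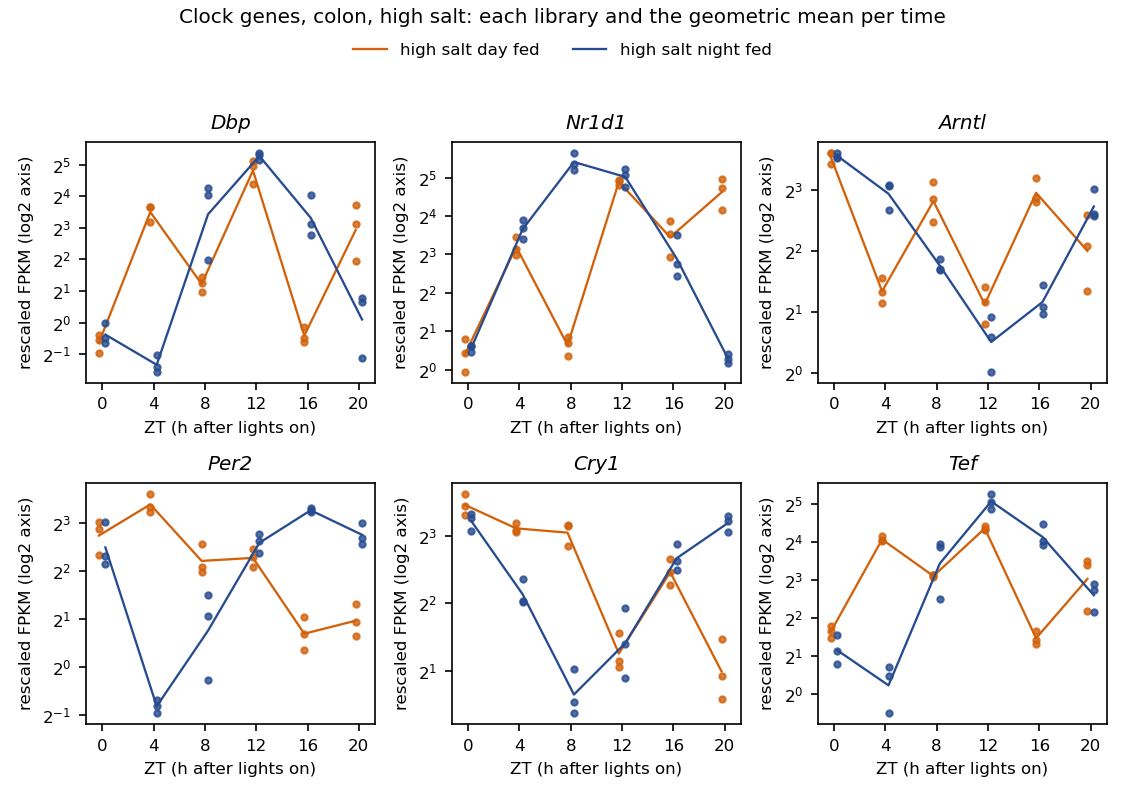
Rescaled FPKM (log2 axis) of 6 clock genes against ZT in hours, with each high salt day fed library (orange) and high salt night fed library (blue) as a point and the geometric mean per time as a line. The groups meet at ZT0 and ZT12 and mostly part at ZT4, ZT8, ZT16 and ZT20, so that day fed Dbp, Nr1d1 and Arntl alternate between times.

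The fitted waves reflect this. A single 24 h wave held a median of 50.7% of the variation between times of the 18 clock genes in day fed, against 90.9% in night fed, 93.3% in low salt day fed and 94.9% in low salt night fed. A departure from the wave passed for 78 genes in day fed, 11 of them among the 18 clock genes, and for 18 genes in night fed, 2 of them clock genes (limma F test with 3 degrees of freedom). The amplitude of Dbp, the log2 distance from mean to peak, was 0.9 in day fed over 6 times and 2.71 in night fed, but 2.44 in day fed and 3.19 in night fed at ZT4, ZT8, ZT16 and ZT20. For Nr1d1 the amplitudes were 1.36 in day fed and 2.53 in night fed over 6 times, and 2.02 and 2.5 at the 4 times. The day fed amplitudes of both genes were lower in both settings, by less without the libraries labelled ZT0 and ZT12.

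Fitted peak times differed between the groups, and the shifts over 6 times went in both directions. Over 15 clock genes rhythmic in both groups the circular mean shift, day fed minus night fed, was -5.77 h (SD over genes 5.55), with single genes from -11.4 h to 11.43 h (Per2) and Nr1d1 at 6.14 h. At ZT4, ZT8, ZT16 and ZT20 the mean was -11.48 h (SD 1.13, 14 genes). By replicate number the 6-time value was -4.49, -5.2 and -6.5 h. In low salt the shift was -9.2 h (SD 1.34, 16 genes) over 6 times and -9.02 h (SD 1.28) at the 4 times. A shift near 12 h is as much a delay as an advance, so no direction is given for it. At the 4 times Dbp peaked at ZT 0.78 in day fed and 12.3 in night fed, Arntl at 12.7 in day fed and 0.622 in night fed, and Per2 at 3.77 in day fed and 16.1 in night fed. The repressor genes Cry1 (8.73 in day fed, 21.2 in night fed) and Per3 (3.31 in day fed, 14.7 in night fed) and the output genes Tef (2.08 in day fed, 13.3 in night fed) and Usp2 (3.08 in day fed, 14.2 in night fed) were similarly far apart. Cry2 (5.63 in day fed, 14.3 in night fed) was shifted by -8.66 h. Per1 was shifted by -6.58 h at the 4 times, though its day fed rhythm there did not pass (adjusted p = 0.24).

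**Figure D4:**
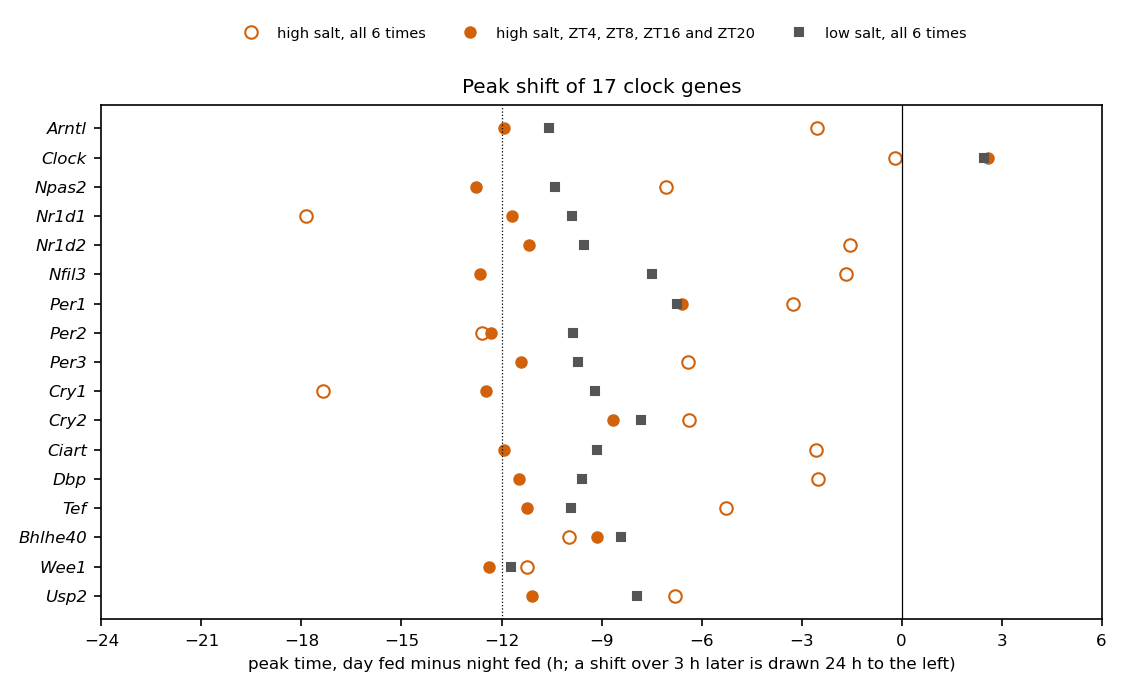
Shift of the fitted peak, day fed minus night fed in hours, of 17 clock genes in high salt over 6 times (open circles), in high salt at ZT4, ZT8, ZT16 and ZT20 (filled circles) and in low salt over 6 times (squares); genes not rhythmic in both groups, such as Clock, are drawn too. Filled circles gather near -11.48 h, squares near -9.2 h, and open circles scatter.

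Whether salt changed the clock response to feeding time depends on the times used. The difference between diets in the rhythm difference passed for 11 of 18 clock genes over 6 times, where 6.25% of all genes passed, for 1 at ZT4, ZT8, ZT16 and ZT20, and for none at ZT4, ZT16 and ZT20 alone. Nr1d1 was the gene that passed at the 4 times (1.28, adjusted p = 0.00682, and 2.45 over 6 times). The sizes did not all fall with the calls: Dbp had 2.22 over 6 times, 1.36 at the 4 times and 2.44 at ZT4, ZT16 and ZT20, and Tef had 0.8, 0.73 and 1.33. These settings hold fewer libraries, and the part of the libraries labelled ZT0 and ZT12 was not tested beyond them.

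Mitosis genes moved to another part of the day. All 18 tested mitosis genes passed for the rhythm difference over 6 times, at ZT4, ZT16 and ZT20, and at the 4 times. Of all genes 25.2% passed over 6 times and 9.14% at ZT4, ZT16 and ZT20. Without the low-scale libraries 17 of the 18 passed, with the count of all genes given further below. Cdc20, an activator of the anaphase-promoting complex, had day fed means of 14.9, 9.2, 10.2, 20.9, 20.6 and 19.6 from ZT0 to ZT20, against 17.3, 20.8, 16.7, 15, 6.25 and 13.6 in night fed. At ZT4 its day fed replicates (8.1 to 10.6) lay below those of night fed (17.9 to 23.3), and at ZT16 they lay above (16.2 to 23 in day fed, 4.42 to 8.14 in night fed). The rhythm difference was 1.24 ± 0.12 (adjusted p = 8.9e-08). Ccnb2, a mitotic cyclin, differed by 1.32 ± 0.14, Cenpa, the centromeric histone, by 1.55 ± 0.12 and Ube2c, a ubiquitin-conjugating enzyme of mitosis, by 1.22 ± 0.13. The mean shift was -9.37 h (SD 1.69, 15 genes) over 6 times and -9.59 h (SD 0.6, 9 genes) at the 4 times, over different numbers of genes. In low salt it was -6.91 h over 6 times, and the difference between the diets passed for none of the 18.

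Lipid synthesis followed the feeding group as well. Of 23 cholesterol synthesis genes 18 passed for rhythm, 7 at ZT4, ZT16 and ZT20 and 6 without the low-scale libraries. Of 13 fatty acid synthesis genes 12, 6 and 9 passed in the same settings. Of all genes 25.2% passed over 6 times and 9.14% at ZT4, ZT16 and ZT20. In low salt 20 of the 23 and 12 of the 13 passed over 6 times, where 39% of all genes did. The difference between the diets over 6 times passed for 1 gene of each list, where 6.25% of all genes passed. Scd2, a stearoyl-CoA desaturase, had day fed means of 149, 186, 164, 51.1, 45.9 and 66.8 and night fed means of 132, 57.1, 42.4, 43.8, 128 and 183. Its high hours ran from ZT0 to ZT8 in day fed and from ZT16 to ZT0 in night fed, with no overlap of replicates at ZT4, ZT8, ZT16 and ZT20. The rhythm difference was 1.89 ± 0.11 (adjusted p = 7.97e-12). Srebf1, the transcription factor of the pathway, differed by 0.91 ± 0.08, and its target Fasn, the fatty acid synthase, by 0.81 ± 0.11. Among genes of cholesterol, Dhcr7, the last reductase of its synthesis, had 33.2 to 35.7 in day fed at ZT8, against 17.4 to 19.2 in night fed. At ZT16 it had 18 to 22.5 in day fed and 31.6 to 32.4 in night fed. Its replicates did not overlap at either time, and the rhythm difference of Dhcr7 was 0.68 ± 0.05. The enzyme genes Cyp51 and Nsdhl differed by 0.64 ± 0.1 and 0.51 ± 0.08. In day fed, mean peaks came 7.84 h later for fatty acid and 8.61 h later for cholesterol synthesis over 6 times (9.9 and 7.83 h at the 4 times).

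Of 19 genes of fatty acid oxidation and fasting 9 passed for rhythm, and 4 at ZT4, ZT16 and ZT20, where 25.2% and 9.14% of all genes passed. Acot1, a cytosolic thioesterase induced in fasting, had day fed means of 1.89, 2.06, 3.07, 5.39, 5.41 and 4.76, against 3.28, 4.52, 3.06, 3.61, 2.13 and 2.36 in night fed (1.06 ± 0.1, adjusted p = 2.11e-07). Day fed was lower at ZT0 and ZT4 and higher at ZT12, ZT16 and ZT20. Its mitochondrial relative Acot2 differed by 0.68 ± 0.1. The 2 are close paralogs, so reads may be divided between them. Mt2, a metal-binding metallothionein induced by zinc and glucocorticoid, differed by 1.39 ± 0.23, with a fitted peak at ZT 14.8 in day fed and 9.22 in night fed.

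**Figure D5:**
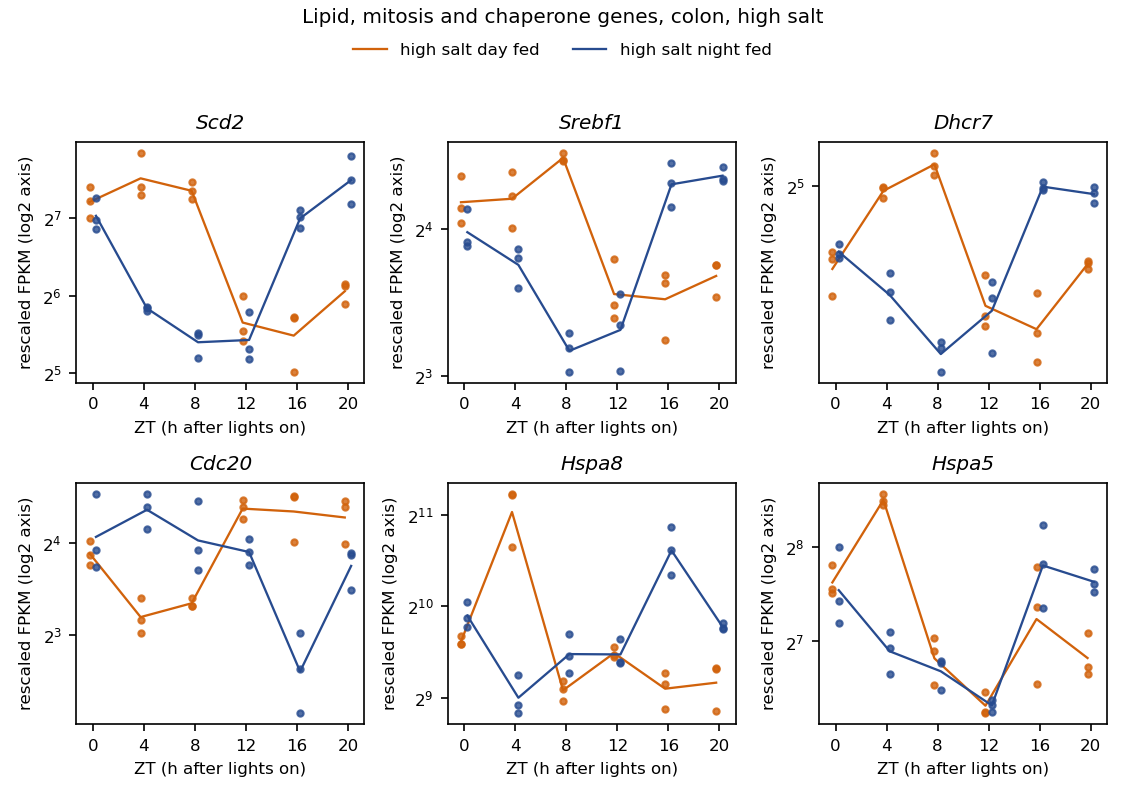
Rescaled FPKM (log2 axis) against ZT in hours of Scd2, Srebf1, Dhcr7, Cdc20, Hspa8 and Hspa5, with each high salt day fed library (orange) and high salt night fed library (blue) as a point and the geometric mean per time as a line. Lipid genes are highest at ZT4 or ZT8 in day fed and at ZT16 or ZT20 in night fed, Cdc20 is lowest at ZT4 in day fed and at ZT16 in night fed, and Hspa8 and Hspa5 peak at ZT4 in day fed and at ZT16 in night fed.

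Chaperones of the cytosol peaked at ZT4 in day fed. Of 15 heat shock genes 10 passed for rhythm over 6 times and 12 at ZT4, ZT16 and ZT20. Among all genes these shares were 25.2% and 9.14%. The promoters of 2 are shown because they hold the heat shock element (capitals; GAA, TTC and GAA, each separated from the next by 2 bases of any kind, on either strand), from RefSeq on GRCm38.p6.
Hsph1: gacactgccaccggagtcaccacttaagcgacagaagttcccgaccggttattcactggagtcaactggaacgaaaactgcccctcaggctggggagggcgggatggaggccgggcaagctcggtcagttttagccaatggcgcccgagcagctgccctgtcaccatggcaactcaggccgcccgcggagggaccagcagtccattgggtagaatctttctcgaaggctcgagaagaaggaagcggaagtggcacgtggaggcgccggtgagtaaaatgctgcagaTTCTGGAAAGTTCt
Chordc1: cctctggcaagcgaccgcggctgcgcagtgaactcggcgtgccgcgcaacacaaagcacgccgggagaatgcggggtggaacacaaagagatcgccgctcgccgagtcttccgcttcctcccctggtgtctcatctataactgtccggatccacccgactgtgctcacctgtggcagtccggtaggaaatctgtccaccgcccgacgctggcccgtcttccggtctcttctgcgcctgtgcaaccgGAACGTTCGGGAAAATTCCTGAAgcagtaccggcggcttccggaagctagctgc
The windows are at chr5:149636287-149636586 (minus strand) and chr9:18292017-18292316 (plus strand), with 1 match in Hsph1 and 3 overlapping matches in Chordc1. On both strands 0.603% of all windows held a match, and so did 5 of the 17 windows of the 12 heat shock genes that had one (4 genes).

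Hspa8, the constitutive HSC70 chaperone, had 1600 to 2400 rescaled FPKM in day fed at ZT4, against 456 to 608 in night fed. At ZT16 it had 471 to 616 in day fed and 1300 to 1870 in night fed. No replicates overlapped at either time, and the rhythm difference was 1.18 ± 0.1 (adjusted p = 7.11e-09). Hsph1, a nucleotide exchange factor for HSP70, had means at ZT4 of 69.2 in day fed and 6.76 in night fed, and at ZT16 of 14 in day fed and 31.5 in night fed (1.63 ± 0.25). Dnaja1, an HSP40 cochaperone, differed by 1.03 ± 0.11, Chordc1, which binds HSP90, by 0.99 ± 0.15 and Stip1, which links HSP70 and HSP90, by 0.74 ± 0.11. Cirbp, an RNA-binding protein whose RNA rises in the cold, ran the opposite way, with 6.23 to 6.58 at ZT4 in day fed and 32.1 to 33.5 in night fed (1.11 ± 0.11, adjusted p = 1.59e-07).

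For Hspa8 and Dnaja1 the diets differed also without ZT0 and ZT12. Over 6 times the difference between the diets in rhythm passed for 4 of the 15 heat shock genes, where 6.25% of all genes passed. The difference between the diets in the rhythm difference of Hspa8 was 0.83 (adjusted p = 0.00133) over 6 times, 1.59 (0.0036) at the 4 times and 1.32 (0.00498) at ZT4, ZT16 and ZT20. For Dnaja1 it was 0.85 (0.0191), 1.49 (0.0299) and 1.23 (0.0134), and for Cirbp 0.81 (0.00488), 1.11 (0.0516) and 1.16 (0.0134) in the same settings. In low salt Hspa8 peaked at ZT 12.2 in day fed and 15 in night fed, and in high salt at 3.65 in day fed and 17.5 in night fed. Between the diets Chordc1 did not pass at the 4 times (1.15, adjusted p = 0.169) or at ZT4, ZT16 and ZT20 (1, 0.123). At ZT4, ZT16 and ZT20 66 genes passed this test of the diets in all.

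The endoplasmic reticulum showed a similar change. Of 22 folding and stress genes 19 passed for rhythm over 6 times and 11 at ZT4, ZT16 and ZT20. Among all genes these shares were 25.2% and 9.14%. Without the low-scale libraries 7 of the 22 passed, and 9 without replicate 1. Hspa5, the BiP chaperone, had day fed means of 198, 362, 114, 80, 161 and 115 and night fed means of 192, 120, 103, 80, 231 and 199 (0.93 ± 0.13, adjusted p = 6.54e-05). The groups had about the same mean at ZT0 and ZT12, and day fed was far higher at ZT4. Herpud1, a component of ER-associated degradation, differed by 0.79 ± 0.08, Sdf2l1 by 1.02 ± 0.15 and calreticulin (Calr) by 0.64 ± 0.1. Over 6 times the difference between the diets in rhythm passed for 5 of the 22 genes, where 6.25% of all genes passed. For Herpud1 the diets differed at 0.55 (adjusted p = 0.00238) over 6 times. They differed at 0.62 both at the 4 times (0.00332) and at ZT4, ZT16 and ZT20 (0.0125). The low salt peaks of Herpud1 were at ZT 11.7 in day fed and 14 in night fed. Its high salt peaks were at 5.18 in day fed and 16.6 in night fed.

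MHC class II genes, already described for level, also differed in rhythm. Of 6 tested, 6 passed over 6 times, 3 at ZT4, ZT16 and ZT20, and 0 without replicate 2. Of all genes 25.2% passed over 6 times and 9.14% at ZT4, ZT16 and ZT20. Cd74 had day fed means of 310, 294, 132, 74.1, 130 and 172 and night fed means of 29.5, 15, 17.2, 25.6, 58.8 and 83.8. Day fed was highest at ZT0 and ZT4 and night fed at ZT16 and ZT20, and the course as labelled did not alternate between times as the clock genes did. The rhythm difference was 1.6 ± 0.35 (adjusted p = 0.0058) and missed the threshold without replicate 2 (1.36, adjusted p = 0.173), as did H2-Ab1 (1.14, 0.135), H2-Eb1 (1.15, 0.135) and H2-DMa (0.81, 0.14). In low salt the peaks of Cd74 were at ZT 11.6 in day fed and 3.25 in night fed, and in high salt at 0.813 in day fed and 18.1 in night fed. The diets differed by 3.3 (adjusted p = 0.000218) over 6 times, 3.73 (0.014) at the 4 times and 3.55 (0.0125) at ZT4, ZT16 and ZT20. H2-Ab1 did so as well (2.77, 3.19 and 3.08). Of the 8 tested T cell markers none passed for a rhythm difference.

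Of 13 genes of the sodium uptake and aldosterone list, 4 were rhythmic in day fed and 11 in night fed (median amplitude 0.17 in day fed and 0.37 in night fed, against 0.17 and 0.22 over all tested genes). Over all tested genes 22.9% were rhythmic in day fed and 52.7% in night fed, so more calls in night fed are not particular to this list. For the rhythm difference 6 of the 13 passed over 6 times and 1 at ZT4, ZT16 and ZT20, where 25.2% and 9.14% of all genes passed. Scnn1b had night fed means that ran from 0.746 at ZT20 to 1.97 at ZT4, and day fed means of 0.872 to 1.38 with no rhythm past the threshold (adjusted p = 0.231; rhythm difference 0.64 ± 0.12, adjusted p = 0.00202). Sgk1 differed by 1.1 ± 0.3 (adjusted p = 0.023), with day fed maximal at ZT8 (34.6) and night fed at ZT20 (31.2), and missed the threshold without any of 3 single libraries. Those were day fed ZT20 replicate 2 and night fed ZT20 replicate 3 (0.99 without either) and night fed ZT8 replicate 3 (0.89). Scnn1a (0.33 ± 0.12, adjusted p = 0.0892) and Nr3c2 (0.19 ± 0.19, adjusted p = 0.719) did not pass, though Scnn1a passed without day fed ZT4 replicate 2 (0.37), night fed ZT0 replicate 1 (0.4) or night fed ZT8 replicate 3 (0.36). The glucocorticoid target Tsc22d3 (GILZ) differed by 0.63 ± 0.12, and missed the threshold at ZT4, ZT16 and ZT20 (adjusted p = 0.0544). Car2, the cytosolic carbonic anhydrase that feeds sodium and chloride exchange, passed in both tests (0.81 ± 0.08, adjusted p = 5.55e-07 over 6 times and 0.0016 in the repeat). It was highest at ZT4 and ZT8 in day fed (429 and 423) and at ZT16 in night fed (608).

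Over all genes, 2417 (22.3%) passed for level over 6 times, and 176 passed both there and at ZT4, ZT16 and ZT20 with the same sign, 150 higher and 26 lower in day fed. For rhythm 2741 passed over 6 times, of which 906 also passed in the repeat. A 24 h rhythm passed for 22.9% of genes in day fed and 52.7% in night fed. These shares move with a few libraries: without the 5 low-scale ones 378 genes were rhythmic in night fed, against 5725 with them.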

How the data were processed

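Poly(A) RNA of mouse colon was sequenced with a stranded kit, per the labels' protocols. FPKM values per gene were deposited by the authors; TopHat2 2.1.1, Cufflinks 2.2.1 and mm10 are named in the submitters' processing notes, without their settings. No counts were used, so depth is unknown, which limits what can be said of low genes; their smallest values put 1 fragment at 1 to 1.8 times its worth in the deepest library. The p-values measure the spread between libraries, which may be technical. Each table held 24883 rows, of which 817 shared a symbol.

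Libraries were put on 1 scale by the median of their ratios to the mean library over 10727 genes (rescaled FPKM), and log2(value + 0.5) was fitted with limma 3.58.1 in R 4.3.3 (trend and robust), with 1 mean per feeding group and time. Genes whose mean was under 1 rescaled FPKM in every group were left out. Rhythm was tested as the 24 h cosine and sine contrasts (F test, 2 degrees of freedom), with Benjamini-Hochberg adjustment at 0.05. The difference between diets was fitted on 72 libraries and 11110 genes. Fits were tested on simulated data. Alternatives covered scaling, pseudocount, filter, weights, length score, times and each replicate or library; leaving out 4 day fed libraries of length score over 0.35, and ZT4, ZT8, ZT16 and ZT20 alone, were added after the data were seen.

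Genes named were the 10 largest level differences per direction that passed over 6 times and at ZT4, ZT16 and ZT20 (the repeat) with 1 sign at all 6 times, the 10 largest rhythm differences that passed both tests, all clock genes, 5 sodium transport genes, and up to 4 members of every other list by smallest adjusted p in level and in rhythm. Predicted genes, receptor segments and shared symbols were not named, and the values of a few genes are not reported here. The members and lists were chosen with earlier results of these data known. Coordinates are from GENCODE vM21, which matched 95.7% of symbols. Replicate numbers did not pair libraries: 4 of 18 same-numbered pairs correlated over 0.1 (-0.41 to 0.43). Figures used Python 3.11.15, pandas 2.3.3 and matplotlib 3.10.9.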

Additional observations from a re-analysis of the deposited data

Results flagged for a closer look

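The day fed minus night fed difference of level itself differed between high salt and low salt for 19 of 20 named genes. Of all genes 19.8% did so (limma test of the difference, adjusted over all genes). The 20 were named as the 10 largest level differences in each direction in high salt. That choice used a part of the tested difference, so the count is a description and no independent support. In log2 units, high salt minus low salt, the difference was 4.54 for Ifi27l2a, 3.8 for Ifi44, 3.51 for Ifit2, 3.5 for Isg15, 3.5 for Oas3, 3.48 for Oas2, 3.42 for Usp18, 3.29 for Apol9b, 3.26 for Oasl2 and 3.25 for Apol9a, all of them interferon-induced. It was negative for Mptx2 (-1.27), Arc (-1.03), Areg (-0.92), Klf2 (-0.68), Cyr61 (-0.67), Edn1 (-0.57), Ifrd1 (-0.5), Plk2 (-0.44) and Cdk8 (-0.16).

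The difference of rhythm differed between the diets over 6 times for the 6 genes given here. Other genes passed too, 6.25% of all. The 6 were taken from those named for the largest rhythm differences in high salt, which are a part of this test. The difference was 2.45 for Nr1d1, 2.22 for Dbp, 1.27 for Ciart, 0.8 for Tef and 0.68 for Scd2. At ZT4, ZT8, ZT16 and ZT20, Nr1d1 still passed (1.28, adjusted p = 0.00682), while Dbp (1.36, adjusted p = 0.258), Ciart (1.04, adjusted p = 0.353), Tef (0.73, adjusted p = 0.402) and Scd2 (0.54, adjusted p = 0.102) did not. At ZT0 and ZT12, the times left out of the second set, the 18 clock genes of high salt day fed followed night fed (r = 0.98 at each time, across genes); the part of those libraries in the 6-time values was not tested beyond this repeat. Cd74 had 3.3 over 6 times, 3.73 without ZT0 and ZT12 (adjusted p = 0.014) and 3.55 at ZT4, ZT16 and ZT20 (adjusted p = 0.0125).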

How the results depend on the processing

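On FPKM as deposited the all-gene median moved by 0.42, and Cdk8 (0.29), Errfi1 (0.1), Rps6 (0.18), Rpl8 (0.05), Scnn1a (0.47) and Scnn1b (0.08) changed sign; 9667 genes then passed for level (99.7% higher, against 46.9%), 120 at ZT4, ZT16 and ZT20 (94.2% higher), 9373 for rhythm, 188 for time dependence at ZT4, ZT16 and ZT20, 9998 were rhythmic in night fed, and 8369 (99.2% higher) and 7125 differed between diets in level and rhythm. With array weights these counts were 4115, 592 (66.9% higher), 5286, 4349, 8767, 7055 and 6913, and 3782 were rhythmic in day fed. With the length score as a covariate 332 (65.1% higher) passed for level and 1521 for time dependence at ZT4, ZT16 and ZT20, and 4113 for rhythm. A filter at a mean of 5 gave 1629 rhythmic genes in day fed and 510 for time dependence in the repeat.

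Leaving out the low-scale libraries gave 502 for level (76.5% higher), 988 for rhythm and 378 rhythmic in night fed. Leaving out the day fed libraries of high length score gave 772 for level (68.4% higher) and 573 rhythmic in day fed. ZT0, ZT4, ZT16 and ZT20 alone gave 574 (75.4% higher) for level, 1270 for rhythm, and 599 (71.8% higher) and 265 between diets. ZT4, ZT8, ZT16 and ZT20 alone gave 569 (72.1% higher), 323 and 3731 rhythmic in day fed and night fed, and 693 (61% higher) and 80 between diets. ZT4, ZT16 and ZT20 alone gave 207 (80.7% higher) and 66 between diets. The clock shift was -10.16 h as deposited, -9.88 h without low-scale libraries and -11.48 h at ZT4, ZT8, ZT16 and ZT20. The cause of these changes was not tested.

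Leaving out a replicate number or 1 library gave 421 to 3634 for level, 74 to 195 in its repeat, 952 to 3741 for rhythm, 128 to 1373 in its repeat, 98 to 4359 rhythmic in day fed, 2429 to 6590 in night fed, 444 to 3482 and 94 to 1191 between diets, and a clock shift of -7.32 to -4.79 h. Single libraries moved some counts by over 1.5 times. Without night fed ZT12 replicate 1, 3634 passed for level, and 3314 and 1191 between diets; without low salt night fed ZT0 replicate 2, 3482 passed between diets in level. Without night fed ZT20 replicate 2, 127 passed for level in the repeat, and without day fed ZT4 replicate 3 or night fed ZT4 replicate 1, 633 and 542 for its time dependence. Rhythmic genes in day fed numbered 1137, 4142 and 1252 without ZT0 replicates 1, 2 and 3, 1093, 1479 and 4359 without ZT16 replicates 1, 2 and 3, 1307 without ZT12 replicate 3 and 1383 without ZT4 replicate 1. With a replicate block 2304 passed for level, 2611 for rhythm, 148 and 872 in the repeats, 2132 and 682 between diets, and no direction changed; 6 of 36 libraries correlated best with their own number. Low genes are limited by an unknown depth.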

Other observations

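Xenobiotic metabolism genes, which clear drugs and dietary compounds, gave 7 of 23 tested higher in day fed and none lower over 6 times (median 0.08), and none at ZT4, ZT16 and ZT20. Among all genes 10.4% were higher and 11.8% lower over 6 times. The difference between the diets passed for 9 of the 23, all positive, where 9.54% of all genes passed that way and 10.3% the other. Abcc3, an export pump for conjugated bile acids, had 41, 53.4 and 78.9 rescaled FPKM as its lowest, median and highest in day fed, against 27, 37.2 and 61.1 in night fed. The groups overlapped, and the level difference was 0.44 ± 0.08 over 6 times (limma, adjusted p = 0.000388) and 0.29 ± 0.13 in the repeat (adjusted p = 0.4). Of 17 tested DNA replication genes none differed in level, and 6 differed in rhythm over 6 times and none at ZT4, ZT16 and ZT20, while all 18 mitosis genes passed for rhythm in both tests. The shares of all genes were 22.3% for level, 25.2% for rhythm over 6 times and 9.14% for rhythm in the repeat.

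Of 6 markers listed for pancreatic acinar cells only Clps, which encodes colipase, passed the filter on low values, with a mean of 19 rescaled FPKM in day fed and 43.7 in night fed. The defining enzyme genes Cpa1, Cpb1, Ctrb1, Cela2a and Pnlip were at or near 0 in both groups. Red cell markers summed to 18.5 to 306 in day fed and 22.9 to 249 in night fed, with medians of 72.2 and 61.2.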
